A study of Homo sapiens with 8 samples.

Results

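The RNA sensors and interferon signalling factors described here are 9 genes, DDX58, IFIH1, DHX58, TLR3, EIF2AK2, IRF1, IRF7, IRF9 and STAT2. They were found by the gene name that the array design gives each probe, and 12 probes carried 1 of these names, out of 58201 probes for 43317 gene names. Where a gene had more than 1 probe, the brightest over all arrays was used. Their transcripts were measured on 2-colour Agilent arrays of 60-base probes, 8 arrays with 1 for each condition. On every array the RNA of mock cells, which the labels describe as not transfected, was labelled with Cy3, and the RNA of transfected cells of the same line with Cy5.

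PC3 cells, a human prostate cancer line, were transfected with miR-150-5p, miR-150-3p, miR-99a-3p or miR-100-3p. FaDu cells, a line of human squamous cell carcinoma of the hypopharynx, received either strand of miR-99a (miR-99a-5p or, on another array, miR-99a-3p). PANC-1 cells, a line of human pancreatic ductal carcinoma, were transfected with si-FOXQ1-1 or si-FOXQ1-2, siRNAs against the transcription factor FOXQ1. The transfection reagent was Lipofectamine RNAiMAX throughout, and the labels give neither the dose nor the time of RNA collection for these arrays. No array with a control RNA was analysed here, so the transfected sequence, the transfection itself and the dyes, which were never swapped, cannot be told apart on any array. With 1 array per condition no test was run, and a member is counted as higher or lower where its log2 ratio of transfected over mock cells is at least 1, a 2-fold difference, in that direction. The value after ± is the error that the scanner software gives the spot, which holds neither culture nor array variation.

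Cells recognise viral or transfected RNA through proteins that bind it directly. RIG-I, encoded by DDX58 (current symbol RIGI), and MDA5, encoded by IFIH1, are cytoplasmic helicases that bind double-stranded RNA and signal through the adaptor MAVS, and LGP2, encoded by DHX58, is a helicase of the same family that tunes them. TLR3 binds double-stranded RNA in endosomes, and PKR, encoded by EIF2AK2, is a kinase that binds double-stranded RNA and halts translation through eIF2. Their signals switch on interferon genes through interferon regulatory factors such as IRF7. Interferon then acts through its receptor on the factor ISGF3, which holds STAT2 and IRF9 and binds the interferon-stimulated response element (ISRE). The gamma-activated site (GAS) is the element of other STAT dimers, through which IRF1 is switched on.

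The transfected miRNAs are small double-stranded RNAs, and their mature strands in RefSeq (GRCh38.p14) are shown because the values of IFIH1 below part miR-99a-3p from miR-100-3p, whose seeds are nearly alike. Capitals mark the seed, bases 2 to 8. The 5p strand of miR-99a comes from chr21:16539101-16539122 and its 3p strand from chr21:16539138-16539159, both on the plus strand, and miR-100-3p from chr11:122152240-122152261 on the minus strand.
hsa-miR-99a-5p: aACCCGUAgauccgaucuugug
hsa-miR-99a-3p: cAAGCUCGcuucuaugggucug
hsa-miR-100-3p: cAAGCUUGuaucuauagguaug
Counted from the 5′ end of the mature strand, miR-100-3p differed from miR-99a-3p at 5 of 22 positions (C7U, C9U, U10A, G16A and C20A), 1 of which lies in the seed.

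The array facts that bear on these genes are few. Between 19184 and 20919 genes per array were detected, that is, well above background in at least 1 channel, and their median log2 ratio lay between -0.03 and 0.02. No gene spot was saturated. FOXQ1 was at -2.16 ± 0.29 with si-FOXQ1-1 and at -2.12 ± 0.28 with si-FOXQ1-2, so that the target of both siRNAs was lower than in mock cells. All 5 squamous epithelium markers examined (KRT5, KRT6A, KRT14, TP63 and DSG3) were well above background in both FaDu mock channels. Of the prostate markers, TMPRSS2 was well above background in all 4 PC3 mock channels, FOLH1 in 2 and KLK3 in 0. The pancreatic duct markers KRT7, KRT19, SOX9 and MUC1 were well above background in both PANC-1 mock channels. Of the leukocyte markers, CD3E and ITGAM were well above background in 1 each of the 8 mock channels, PTPRC in 6 and CD14 in 8.

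The members were higher together on 1 array, PC3 with miR-150-3p. There all 7 members that could be measured in PC3 cells were above mock by more than their spot error, and 5 of the 7 had a log2 ratio of at least 1, against 2.69% of all detected genes on that array. Their median log2 ratio was 1.38, between 0.91 for IRF7 and 2.29 for IFIH1, while the median of all detected genes was -0.02. The highest were IFIH1, IRF9 and DDX58, the lowest IRF1, EIF2AK2 and IRF7. DHX58 and TLR3 were not well above background in either channel of any PC3 array and have no ratio there.

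**Figure D1:**
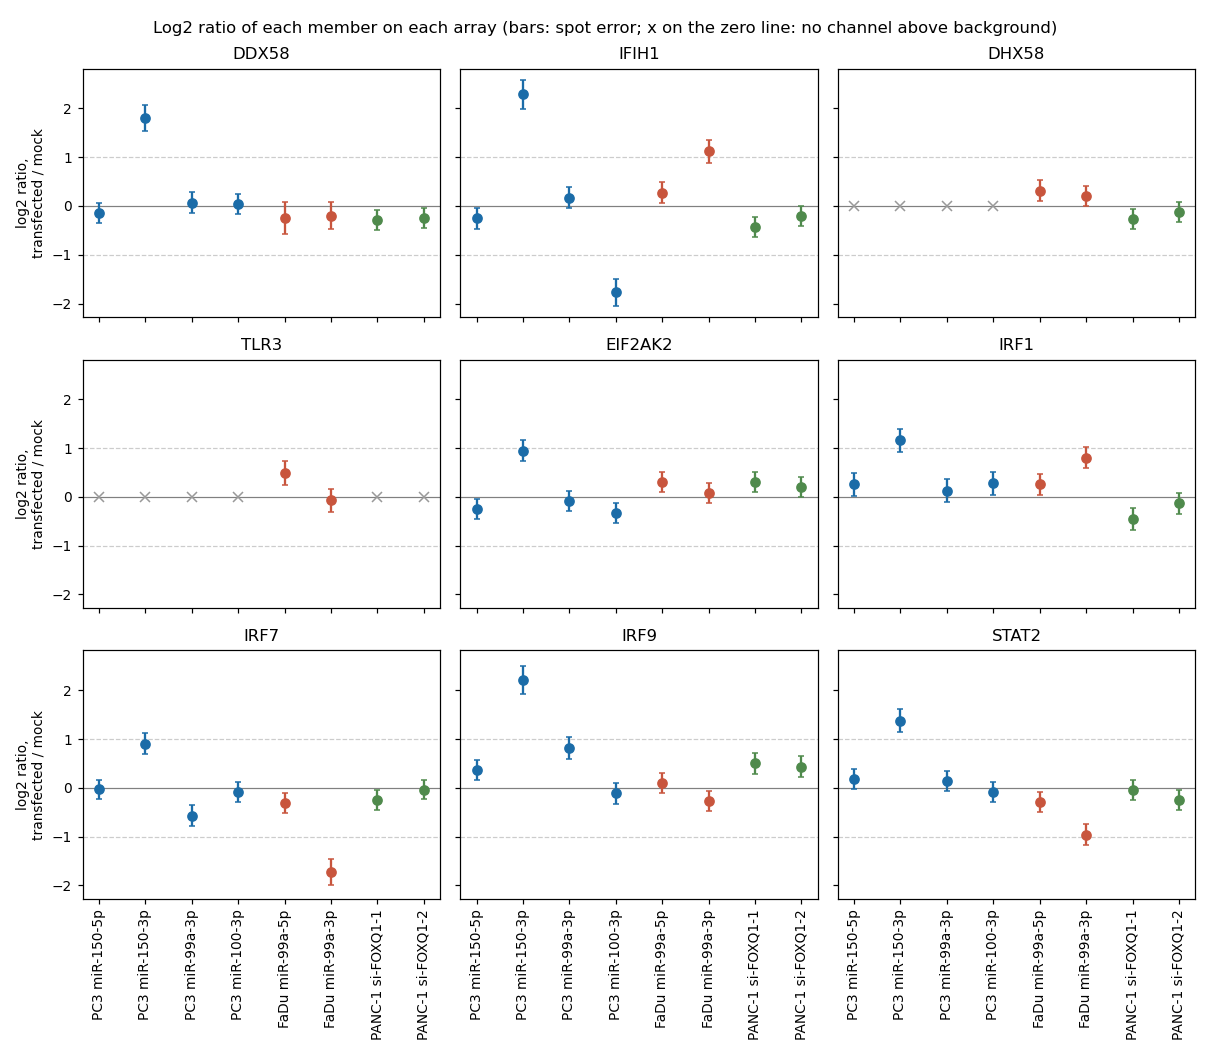
Log2 ratio of transfected over mock cells for each of the 9 genes on each of the 8 arrays, with the spot error as bars, blue for PC3, red for FaDu and green for PANC-1, and a grey cross where neither channel was well above background. All 7 measured genes lie above 0 with miR-150-3p in PC3, while IFIH1 is at -1.77 with miR-100-3p in PC3 and IRF7 at -1.72 with miR-99a-3p in FaDu.

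On the other 7 arrays the medians of the detected members lay between -0.26 and 0.26. In FaDu cells with miR-99a-5p, 0 of 9 detected members reached a log2 ratio of 1, against 0.851% of detected genes. In PC3 cells 0 of 7 did so with miR-150-5p, against 0.664%, with miR-99a-3p, against 4.23%, and with miR-100-3p, against 0.987%. In PANC-1 cells 0 of 8 did so with si-FOXQ1-1, against 0.905%, and with si-FOXQ1-2, against 0.412%. In FaDu cells with miR-99a-3p the members were split, since 1 of 9, IFIH1, reached a log2 ratio of 1, against 8.25% of detected genes, and 1 of 9, IRF7, was at -1 or less, against 9.37%. The only other member at -1 or less on any array was IFIH1 in PC3 cells with miR-100-3p, 1 of 7 members against 3.34% of detected genes. On these arrays the shares rest on 1 gene each.

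Among the sensors, IFIH1 varied most across the arrays. Its probe lies at chr2:163128806-163128865 (hg19, as the scanner files give positions) and is shown because the values of this gene turn on it.
IFIH1 probe: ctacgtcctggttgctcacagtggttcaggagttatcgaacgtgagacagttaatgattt
Its signal was 311.9 in mock and 1525 in transfected PC3 cells with miR-150-3p, a log2 ratio of 2.29 ± 0.29. With miR-100-3p the mock signal was 206.2 and the transfected signal 60.6, both above background, a log2 ratio of -1.77 ± 0.28. The log2 ratios in PC3 were -0.25 ± 0.21 with miR-150-5p and 0.17 ± 0.21 with miR-99a-3p. The mock signals of IFIH1 on the 4 PC3 arrays, brought to a common scale, lay between 213.2 and 255.7, so the arrays stood apart in the transfected channel.

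The ratio of IFIH1 was 1.93 lower on the log2 scale with miR-100-3p than with miR-99a-3p (combined spot error 0.35), although their seeds share 6 of 7 bases, and IRF9 was 0.93 lower (0.30). IRF7 was 0.49 higher with miR-100-3p (0.29). The other 4 members measured in both, DDX58, EIF2AK2, IRF1 and STAT2, differed by no more than the combined spot error. With normexp background correction and loess in place of the scanner's own steps, IFIH1 with miR-100-3p was at -1.13, and with the average of all 4 PC3 mock channels as the control at -1.20. In FaDu cells IFIH1 was at 1.12 ± 0.23 with miR-99a-3p and 0.27 ± 0.22 with miR-99a-5p. The former was under the threshold with normexp and loess (0.89) and with the average of both FaDu mock channels as the control (0.90). In PANC-1 cells it was at -0.43 ± 0.21 with si-FOXQ1-1 and -0.20 ± 0.21 with si-FOXQ1-2.

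DDX58 was measured by a probe at chr9:32455398-32455457 (hg19). Its signal in PC3 cells was 329 in mock and 1152 with miR-150-3p, a log2 ratio of 1.81 ± 0.26, and on the other 7 arrays its log2 ratio lay between -0.28 and 0.07. A second DDX58 probe, at chr9:32455728-32455787 and assigned to the same transcript, gave 1.96 ± 0.28 with miR-150-3p. This probe gave another value in FaDu cells with miR-99a-3p, where its signal was 212.4 in mock and 1040 in transfected cells, a log2 ratio of 2.29 ± 0.30, against -0.20 ± 0.28 for the first probe. The first probe, though brighter over all arrays, was the dimmer one there, with signals of 120.4 in mock and 105 in transfected cells. With miR-100-3p in PC3 the second probe was at 0.80 ± 0.24, against 0.04 ± 0.21 for the first. Whether DDX58 differed from mock under miR-99a-3p in FaDu therefore depends on the probe, and transcript isoforms were not examined.

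**Figure D2:**
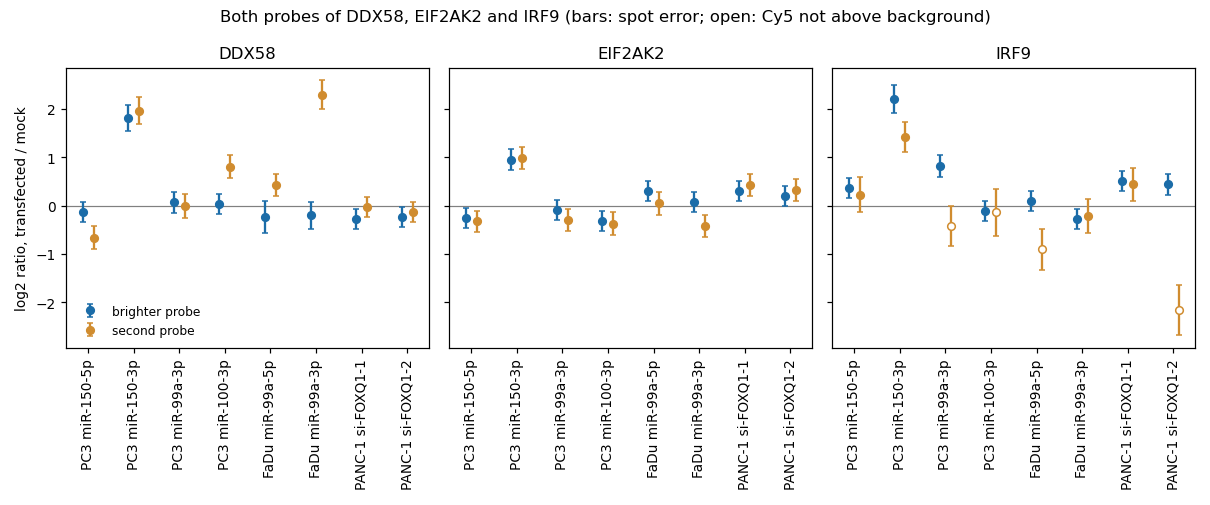
Log2 ratio of transfected over mock cells for the probe brighter over all arrays (blue) and the second probe (orange) of DDX58, EIF2AK2 and IRF9 on the 8 arrays, with the spot error as bars and open symbols where Cy5 was not well above background. In FaDu the second DDX58 probe had the higher mock signals. Both probes lie above 0 with miR-150-3p in PC3 for all 3 genes, and the DDX58 probes part at -0.20 and 2.29 with miR-99a-3p in FaDu.

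EIF2AK2 was measured by a probe that spans chr2:37336386-37341880 (hg19) and so crosses a splice junction. Its signal was 2929 in mock and 5659 in transfected PC3 cells with miR-150-3p, a log2 ratio of 0.95 ± 0.22, just under the threshold of 1. A second probe, at chr2:37368778-37368837, gave 0.99 ± 0.23 on that array. On the other 7 arrays the brighter probe lay between -0.33 and 0.31. The 5 genes listed as PKR partners and targets (PRKRA, EIF2S1, ATF4, DDIT3 and PPP1R15A) lay between -0.43 and -0.13 on the miR-150-3p array. In FaDu cells with miR-99a-3p 3 of these 5 were at -1 or less, against 9.37% of all detected genes. EIF2AK2 was at 0.08 ± 0.20 on that array. DDIT3, which encodes the stress-induced factor CHOP, was there at -3.67 ± 0.40, PPP1R15A, which encodes a phosphatase subunit that reverses eIF2 phosphorylation, at -2.47 ± 0.31, and the translationally controlled factor ATF4 at -1.36 ± 0.24.

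DHX58 and TLR3 separated the cell lines rather than the conditions. DHX58, with a probe at chr17:40253459-40253518 (hg19), had log2 ratios in FaDu cells of 0.32 ± 0.21 with miR-99a-5p and 0.21 ± 0.21 with miR-99a-3p, and of -0.27 ± 0.21 and -0.13 ± 0.21 in PANC-1 cells with si-FOXQ1-1 and si-FOXQ1-2. In PC3 cells its mock signal was between 4.47 and 9.88 on the 4 arrays and not well above background on any. TLR3, with a probe at chr4:187005890-187005949, was measured in FaDu cells only, at 0.49 ± 0.24 with miR-99a-5p and -0.07 ± 0.23 with miR-99a-3p. In PC3 cells with miR-150-3p its signals were 7.92 in mock and 33.4 in transfected cells, neither well above background.

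The lack of DHX58 signal in PC3 cells was shared by neighbours on chromosome 17. These neighbours were chosen for a look after their values had been seen. Of the 40 other genes with a probe within 500 kb of the DHX58 probe, 25 were well above background in all 4 FaDu and all 4 PANC-1 channels, and 6 of these 25 were above background in 0 of the 8 PC3 channels, mock and transfected together. Among all 13894 genes, these and DHX58 included, above background in every FaDu and PANC-1 channel, 127, or 0.914%, were above background in 0 PC3 channels. In order along the chromosome, 11 consecutive genes from DHX58 to STAT3 (chr17:40253459-40474463, hg19) were above background in 0 PC3 channels. Of these 11, KAT2A, RAB5C, GHDC, STAT5B and STAT3 were, like DHX58, above background in every FaDu and PANC-1 channel, 3 (KCNH4, HCRT and lnc-STAT3-1) were above background in 0 channels of any line, and HSPB9 and STAT5A were above it in some FaDu and PANC-1 channels. ATP6V0A1, farther along, was also above background in 0 PC3 channels. Between it and STAT3 lies PTRF, whose mock signal in PC3 was 49421 to 91295. STAT3 had mock signals of 3.69 to 7.97 in PC3, 324.6 to 613.6 in FaDu and 601.4 to 652.7 in PANC-1. The arrays measured RNA, and the gene copies of this stretch were not measured.

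**Figure D3:**
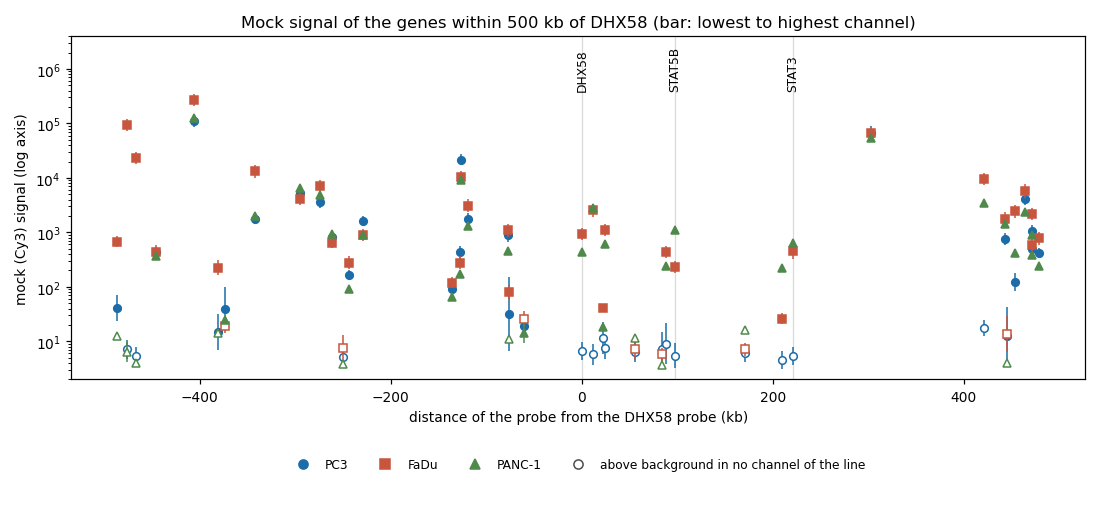
Mock signal (Cy3, log axis) of the 41 genes, DHX58 included, with a probe within 500 kb of the DHX58 probe against the distance of each probe in kb, as the midpoint (on the log scale) and range over the mock channels of PC3 (blue circles), FaDu (red squares) and PANC-1 (green triangles), with open symbols where no channel of the line was above background. The PC3 symbols are open from DHX58 to STAT3, while most FaDu and PANC-1 symbols there are filled.

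The signalling factors followed on the miR-150-3p array. IRF9, the DNA-binding part of ISGF3, with a probe at chr14:24635500-24635559 (hg19), had a signal of 527.1 in mock and 2431 in transfected cells, a log2 ratio of 2.21 ± 0.29. STAT2, with a probe at chr12:56735384-56735443, had signals of 7672 and 19958, a log2 ratio of 1.38 ± 0.24. Both exceeded 1 on this array, and neither did so on any of the other 7 by these probes.

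Outside that array IRF9 and STAT2 differed from each other. IRF9 was above mock by more than its spot error in PC3 with miR-150-5p (0.37 ± 0.21), in PC3 with miR-99a-3p (0.82 ± 0.22) and in both PANC-1 conditions (0.50 ± 0.21 and 0.44 ± 0.21). STAT2 on these 4 arrays lay between -0.25 and 0.19. In FaDu with miR-99a-3p STAT2 was at -0.96 ± 0.22, its mock signal being 10134 and its transfected signal 5216, and IRF9 was at -0.28 ± 0.21. A second, dimmer IRF9 probe at chr14:24636167-24636226, assigned to an Ensembl transcript, gave 1.41 ± 0.31 with miR-150-3p but was well above background in both channels on 4 of the 8 arrays only. In PC3 with miR-99a-3p this probe was at -0.42 ± 0.42, so the higher IRF9 value on that array rests on 1 probe. In PANC-1 it was at 0.44 ± 0.35 with si-FOXQ1-1 but at -2.16 ± 0.52 with si-FOXQ1-2, where its mock signal was 47.3 and its transfected signal, not well above background, 10.6. The sign of IRF9 with si-FOXQ1-2 therefore depends on the probe, the mean over both probes being -0.86. In FaDu with miR-99a-5p the second probe was at -0.90 ± 0.42, also with a dim transfected channel, against 0.09 ± 0.21.

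IRF7, which drives the amplifying wave of interferon production, had a probe at chr11:612643-612702 (hg19). The probe is shown because the lowest log2 ratio among the IRFs and STAT2 turns on it.
IRF7 probe: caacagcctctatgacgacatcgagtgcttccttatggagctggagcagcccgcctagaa
Its signal in FaDu cells with miR-99a-3p was 9030 in mock and 2737 in transfected cells, a log2 ratio of -1.72 ± 0.26, against -0.31 ± 0.21 with miR-99a-5p. In PC3 cells it was at 0.91 ± 0.22 with miR-150-3p, -0.57 ± 0.21 with miR-99a-3p, -0.09 ± 0.20 with miR-100-3p and -0.03 ± 0.20 with miR-150-5p. IRF7 was thus below mock by more than its spot error with miR-99a-3p in both lines, and 1.15 lower on the log2 scale in FaDu than in PC3 (combined spot error 0.33).

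IRF1, an early transcription factor of interferon and cytokine signalling, had a probe at chr5:131819442-131819501. Its signal was 171.1 in mock and 382.3 in transfected PC3 cells with miR-150-3p, a log2 ratio of 1.16 ± 0.24, which was 0.74 with normexp and loess and 0.83 with the average of all PC3 mock channels as the control. In FaDu with miR-99a-3p it was at 0.81 ± 0.22, on an array where IRF7 and STAT2 were below mock. On the other arrays it lay between -0.45 and 0.28.

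miR-99a-3p was the only sequence tested in more than 1 line. Of the 7 members measured in both lines, the PC3 ratio was higher by more than the combined spot error for IRF7, IRF9 and STAT2 and lower for IFIH1 and IRF1, and the median difference was 0.26. The sensor IFIH1 and the factor IRF1 were thus higher in FaDu, and the factors IRF7, IRF9 and STAT2 were lower there. In PC3 cells miR-150-3p was higher than miR-150-5p for all 7 measured members, by 0.91 to 2.54 on the log2 scale (median 1.21). Each difference was above the combined spot error, which holds neither culture nor array variation. For no pair of arrays here is the share of all genes past that error given. For the PANC-1 siRNAs 8 members were measured in both, and by the brighter probes IRF1 alone stood apart by more than the combined spot error, at 0.32 lower with si-FOXQ1-1 (0.30). The second IRF9 probe differed between them by 2.59 (0.63), dim in the transfected channel with si-FOXQ1-2.

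The lists of other pathway genes were described by the same threshold. On the miR-150-3p array all 13 ISGF3 targets reached a log2 ratio of 1, against 2.69% of all detected genes, with a median of 2.89. BST2, which tethers budding virus, was at 3.51 ± 0.39, RSAD2, which encodes the antiviral enzyme viperin, at 3.30 ± 0.37, and MX2, an antiviral GTPase, at 3.14 ± 0.36. Among 9 detected genes of the list of other sensors and RNA-acting enzymes 6 did so, among them OAS2 at 2.39 ± 0.30 and OAS1 at 2.10 ± 0.28, which make the messenger that activates RNase L, and DDX60 at 1.63 ± 0.26. A further one was TLR4, a receptor for bacterial lipopolysaccharide that was listed with the Toll-like receptors, at 1.94 ± 0.32. The immunoproteasome subunit PSMB9 was at 1.96 ± 0.27 and the peptide transporter TAP1 at 1.75 ± 0.26. Of 8 inhibitors 2 did so, the ISG15 protease USP18 at 1.36 ± 0.24 and the ubiquitin ligase RNF125 at 1.31 ± 0.24.

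The genes that carry the signal to and from these factors showed less on that array. Of the 11 adaptors and kinases that link sensors to IRFs, 0 reached 1, and their median was -0.13. MYD88, the adaptor of most Toll-like receptors other than TLR3, was the 1 of them at -1 or less, against 6.68% of all detected genes, at -1.76 ± 0.26. It lay between -0.19 and 0.72 on the other 7 arrays. MAVS was at -0.36 ± 0.21, TBK1 at 0.51 ± 0.21 and STING1 (TMEM173 on the array) at 0.70 ± 0.21. The 6 interferon receptor chains lay between -0.43 and 0.61 and the 3 receptor kinases between -0.49 and -0.26. IRF3, the IRF that sensors activate without new synthesis, was at -0.28 ± 0.21. Of the 7 detected NF-kappaB targets 1, BIRC3, reached 1, at 1.25 ± 0.24, and the median was 0.56.

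Interferon transcripts themselves were scarcely measured. IFNB1, IFNA2, IFNG, IFNK and IFNL3 were not well above background in either channel of any array. IFNE and IFNL2 were above background on the miR-150-3p array in mock cells only. IFNL1 and IFNL2 were at 1.37 ± 0.28 and 1.90 ± 0.29 in FaDu with miR-99a-5p, where the 9 members lay between -0.31 and 0.49. The 13 ISGF3 targets lay between 0.23 and 1.42 on that array, with a median of 0.58. Of them 1 reached 1, against 0.851% of all detected genes. A link between these values was not tested. Of the leukocyte markers only CD14 was detected on the miR-150-3p array, at -0.48 ± 0.25.

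**Figure D4:**
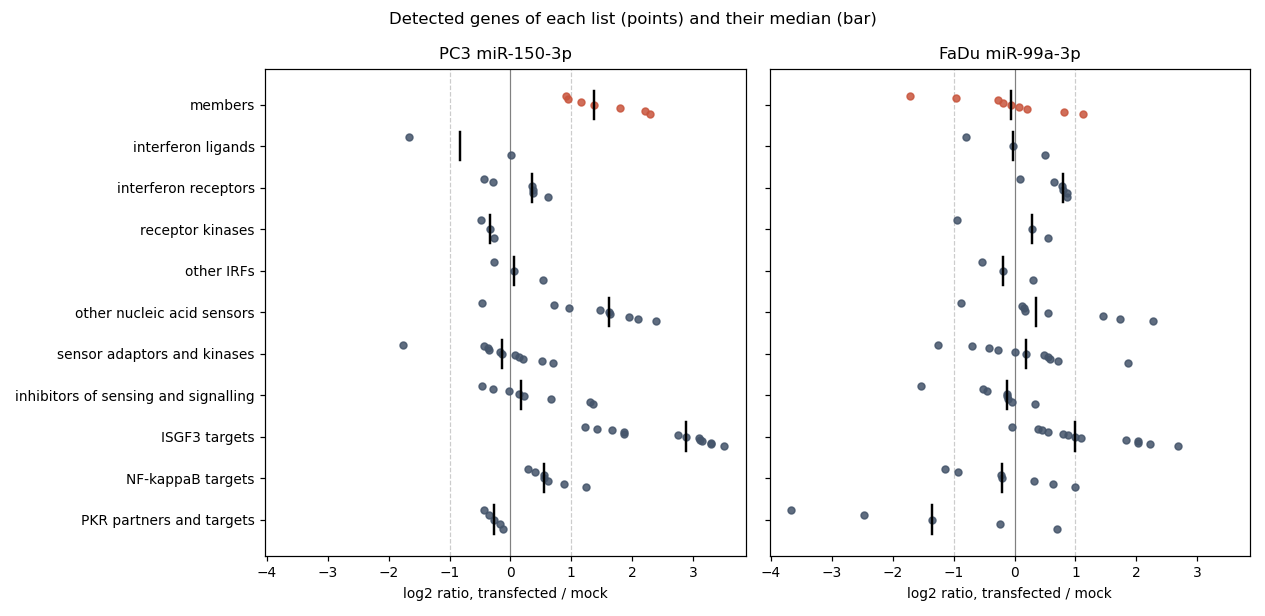
Log2 ratio of the detected genes (points) of the 9-member set (red) and of 10 other pathway lists (dark) on the PC3 miR-150-3p array and the FaDu miR-99a-3p array, with the median of each list as a bar and dashed lines at -1 and 1. The ISGF3 targets lie wholly above 1 on the first array, with a median of 2.89, and between -0.05 and 2.68 on the second.

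The FaDu miR-99a-3p array had ISGF3 targets above mock, but neither STAT2 nor IRF9. Of 13 such genes 6 reached 1, with a median of 0.99, and IFIT3, an antiviral RNA-binding protein partner, was highest at 2.68 ± 0.32, whereas STAT2 and IRF9 were at -0.96 and -0.28. On this array 8.25% of all detected genes reached 1, so more was higher there in general than on the miR-150-3p array. Markers of cell type differed from mock on it too. Of the 5 squamous markers 4 were at -1 or less, against 9.37% of all detected genes. The median of the 5 was -1.66, with KRT6A lowest at -2.83 ± 0.33 and TP63 highest at -0.78 ± 0.22. Of the leukocyte markers CD14 was at 2.54 ± 0.31, with signals of 386.2 in mock and 2245 in transfected cells, PTPRC was above background in mock cells only, and CD3E and ITGAM were in neither channel. The part of these markers in the values of the members and of the ISGF3 targets was not tested. In PANC-1 with si-FOXQ1-1 the same list was divided, with MX1 at 2.00 ± 0.28 and OASL at -1.57 ± 0.25 and 2 of 12 detected genes at 1 or more, against 0.905% of all detected genes, and 2 at -1 or less, against 3.31%. In PC3 with miR-150-5p 3 of 13 were at -1 or less, against 4.49% of all detected genes, and 0 at 1 or more.

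Promoter sequences were set beside these values because ISGF3, which holds IRF9 and STAT2, binds the ISRE. RefSeq windows of 250 bases before to 50 after the start (GRCh38.p14) were found for 7 of the 9 members. They were searched on both strands for the ISRE, spelled as GAAA, any 2 bases and GAAA again (TTTC, any 2 bases and TTTC on the other strand), and for the GAS as TTCNNNGAA, which reads alike on both strands. These letters occur in 3.57% and 7.66% of all 35116 windows. The ISRE letters were found in 3 of the 7 members, IFIH1, TLR3 and EIF2AK2, and the GAS letters in 3, TLR3, IRF1 and IRF9. By comparison 10 of the 10 ISGF3 targets with a window held the ISRE letters and 3 the GAS letters.

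IFIH1, highest of the members with miR-150-3p, held 3 ISRE matches, 2 of them overlapping, which begin 159, 153 and 21 bases upstream of the start. The 250 bases upstream are shown with the matches in capitals (chr2:162318685-162318934, minus strand).
IFIH1 upstream: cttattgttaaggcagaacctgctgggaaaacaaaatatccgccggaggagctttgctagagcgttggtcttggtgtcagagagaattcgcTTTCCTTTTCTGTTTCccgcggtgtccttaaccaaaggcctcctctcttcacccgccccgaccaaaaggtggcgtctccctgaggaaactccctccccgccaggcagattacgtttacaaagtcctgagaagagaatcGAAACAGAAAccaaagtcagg
The match of EIF2AK2 (chr2:37156976-37157005, minus strand) and that of TLR3 (chr4:186069132-186069161, plus strand) lie across the start.
EIF2AK2: ggaaggcggagtccaagggGAAAACGAAAc
TLR3: cattttttttcaagctttacTTTCACTTTC
The GAS letters of IRF1 (chr5:132490874-132490913, minus strand) begin 124 bases and those of IRF9 (chr14:24161185-24161224, plus strand) 63 bases upstream.
IRF1: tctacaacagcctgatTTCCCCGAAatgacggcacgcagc
IRF9: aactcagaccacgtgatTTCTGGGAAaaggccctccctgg
Members with and without the ISRE letters were both among the highest on the miR-150-3p array, IFIH1 at 2.29 with them and IRF9 at 2.21 and DDX58 at 1.81 without.

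The mock cells showed which members each line held before transfection. Signals of the Cy3 channels were brought to a common 75th percentile, with 4 channels for PC3 and 2 each for FaDu and PANC-1. The labels do not say whether the mock channels of a line came from separate cultures, so their spread may be technical, and no test was run. The highest and lowest line differed by at least 1 on the log2 scale for 6 of the 9 members, DDX58, IFIH1, DHX58, TLR3, IRF1 and IRF9. With Aquantile scaling IRF1 no longer did so, at 0.90. The share of all genes that differ so between these lines is not given, so the count does not set these members apart.

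**Figure D5:**
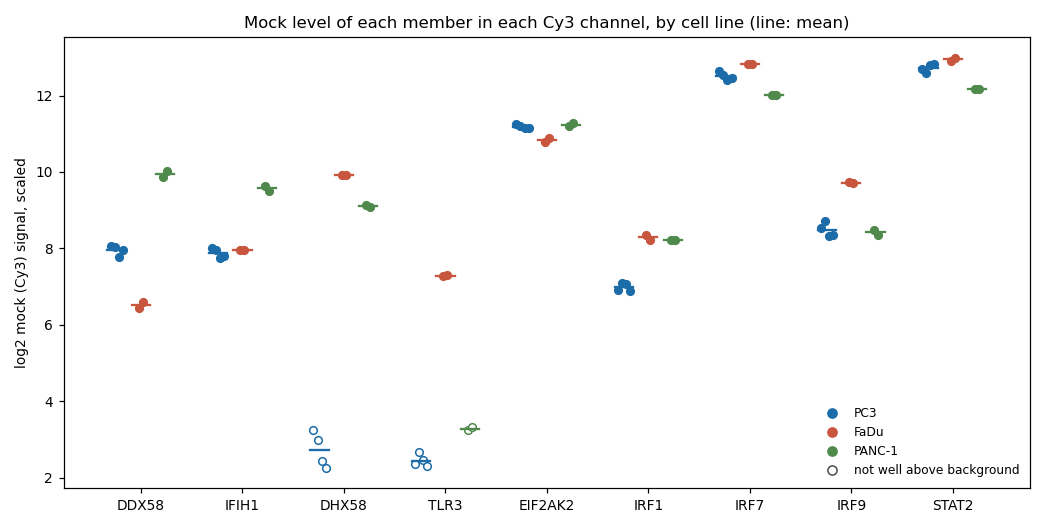
Log2 mock signal (Cy3, scaled to a common 75th percentile) of each of the 9 genes in the 4 PC3 (blue), 2 FaDu (red) and 2 PANC-1 (green) mock channels, with a line at the mean and open symbols for channels not well above background. The lines part most for DHX58 and TLR3, which are at background in PC3, and least for EIF2AK2; heights of different genes come from different probes and are not comparable.

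DDX58 had the order PANC-1, PC3, FaDu, with log2 levels of 9.95 ± 0.12 (SD, n = 2), 7.96 ± 0.14 (SD, n = 4) and 6.52 ± 0.10 (SD, n = 2) and no overlap between channels of different lines. PANC-1 was 10.8-fold above FaDu by this probe, but 1.44 above it on the log2 scale by the second probe, which also placed PC3 below FaDu. With Aquantile scaling the first probe, brighter over all arrays but not in FaDu, gave 2.59 on the log2 scale, against 3.43 here. IFIH1 was highest in PANC-1, at 9.57 ± 0.09 (SD, n = 2), and its FaDu and PC3 channels overlapped, at 7.97 ± 0.00 (SD, n = 2) and 7.87 ± 0.13 (SD, n = 4).

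DHX58 was 1.76-fold higher in FaDu than in PANC-1 without overlap. Since it was not above background in PC3, only bounds were taken there, after loess and Aquantile scaling, against the lowest signal well above background. They are approximate, since on every array some Cy3 signals not well above background exceeded that lowest one. In PC3 with miR-99a-3p, for example, the scanner signals were 39.7 and 25.6. By these bounds DHX58 was at least 11.2-fold higher in FaDu and at least 6.41-fold higher in PANC-1 than in PC3. By the same approximate bounds TLR3 was at least 2.45-fold higher in FaDu than in PC3 and at least 2.30-fold higher than in PANC-1. PC3 and PANC-1, both at background for TLR3, have no order. EIF2AK2 differed least, its PANC-1 and PC3 channels overlapping and FaDu 0.35 below PC3 on the log2 scale. By its second probe PANC-1 was below FaDu, at -0.27.

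IRF1 was 2.35-fold higher in PANC-1 than in PC3, and the FaDu and PANC-1 channels overlapped. IRF9 was 2.36-fold higher in FaDu than in PC3, and the PC3 and PANC-1 channels overlapped. By its second probe FaDu was 0.32 above PANC-1 on the log2 scale, against 1.30 by the brighter one. IRF7 and STAT2 had the same order, FaDu, PC3, PANC-1, without overlap and with 1.76-fold and 1.73-fold between the ends. PC3 thus had the lowest level of IRF1, and DHX58 and TLR3 were not well above background in it.

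In all 8 channels of the PC3 arrays, scaled together by loess and Aquantile, the transfected channel with miR-150-3p was the highest for 7 of 7 measured members. It stood above the next highest of the 7 other channels by 0.74 (IRF1) to 1.98 (IFIH1) on the log2 scale. That channel is part of the miR-150-3p ratios given above, so the count largely restates them. The share of all genes that are highest in it is not given. The SD of the 4 PC3 mock channels was 0.05 to 0.19 for these members on the percentile scale, against a median of 0.12 over 24772 probes above background in all of them.

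Among the 15934 other genes detected on all 8 arrays, the 10 whose log2 ratios lay nearest to the members' median profile, by root mean square distance over the 8 arrays, were DZIP3, IFITM4P, NICN1, RASSF6, SSSCA1-AS1, NOL4L, HCG8, NUPR1L, PMS2 and C5orf63, at distances of 0.17 to 0.24. They were at 0.93 to 1.37 on the miR-150-3p array. Of the members, DDX58 lay nearest to this profile, at 0.25, and IFIH1 farthest, at 0.80, at rank 12944 when set among these genes. The 8 arrays share a slide and, within a line, possibly the mock RNA.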

How the data were processed

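RNA of mock and transfected PC3, FaDu and PANC-1 cells was hybridised to 8 2-colour Agilent arrays of 1 slide. The authors' scanner software, Agilent Feature Extraction 10.7.3.1 per the file headers, subtracted background, evened out the dyes of an array with a linear and a lowess step and set surrogate values for dim signals. The deposited values are intensities per channel, not scaled between arrays, and log10 ratios of Cy5 over Cy3 with an error per spot. The deposited series values are log10 ratios too and differed from the scanner ratios by at most 0.

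Ratios were turned to log2. Control spots and outlier spots (81 to 178 per array) were left out, spots of a probe were averaged, and each gene was its brightest probe. A gene was detected on an array if either channel was well above background. Mock signals were scaled to a common 75th percentile. Of 117 pathway and marker genes 116 had a probe, 3 through older symbols. Named genes are all members, up to 4 genes per list with the largest size of log2 ratio on the array where the members' median was highest, and the 10 nearest profiles. Other list genes named, and the neighbours of DHX58, were chosen after their values were seen. Some listed genes are not reported here. The members and lists were chosen with earlier results of these data known.

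Python 3.11.15, pandas 2.3.3 and, for normexp (offset 50), loess and Aquantile, limma 3.58.1 in R 4.3.3 were used, and the steps were tested on simulated data. The number of arrays limits the precision.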

Additional observations from a re-analysis of the deposited data

Results flagged for a closer look

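The log2 ratio of IRF9 under miR-99a-3p was above 0 in PC3 (0.82 ± 0.22, spot error) and below 0 in FaDu (-0.28 ± 0.21), a difference of 1.09. It drew attention because 1 sequence gave opposite signs in 2 lines, each beyond its spot error. The difference was not tested, since each line has 1 array. The second IRF9 probe was below 0 in both lines, at -0.42 ± 0.42 in PC3, with Cy5 not above background, and at -0.22 ± 0.35 in FaDu.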

How the results depend on the processing

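No paired analysis was possible because the conditions have 1 array apiece. Alternatives were normexp with loess, the series values, the mean over probes, the least bright probe, outlier spots kept, a filter on both channels, no filter, the mean of the line's mock channels as control, bounds for dim channels and thresholds of 0.58 and 2. The members' median with miR-150-3p in PC3 stayed between 1.14 and 1.38, the lowest with the average of all PC3 mock channels as control. Its count of members at 1 or more was 4 to 6 where the threshold was kept, and 2 at a threshold of 2. The count for FaDu with miR-99a-3p was 0 with normexp and loess, 0 against the mean of the mock channels, 2 with the mean over probes, 2 with the least bright probe, 2 at a threshold of 0.58 and 0 at a threshold of 2. The count for PC3 with miR-99a-3p was 1 at a threshold of 0.58. No other median or count moved beyond its spot error or by over 1.5 times. Of the single ratios recomputed 528 stayed within their spot error and 30 moved beyond it, and none reported at 1 or more in size changed sign. Several smaller ones did with another probe choice. Among these, IRF9 with si-FOXQ1-2 went from 0.44 to -2.16 with the least bright probe and -0.86 with the mean over probes, and DDX58 in FaDu with miR-99a-3p from -0.20 to 2.29 and 1.05. The count of members that differ by at least 1 between lines was 6, and 5 with Aquantile, 5 with the least bright probe and 8 with unscaled signals. It stayed at 6 without each PC3 mock channel in turn. Causes of these moves were not tested. Dim probes limit DHX58 and TLR3, which in PC3 have only approximate bounds.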
